A study of Capra hircus with 6 samples.

Results

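TGM2, RARRES1, and RARRES2 were examined in RNA-seq data from dermal papilla cells of goat secondary hair follicles (SHF-DPCs) cultured with or without all-trans retinoic acid (ATRA). The members are the 3 rows of the deposited count table that carry these names, of 15944 genes listed. All 3 were among the 12588 genes with enough reads to be tested. TGM2 and RARRES1 reached that set only through the ATRA libraries, and RARRES2 reached it through both groups. The cells were wild-type primary cultures from the scapular skin of 3-year-old Albas cashmere goats in anagen, the growing phase of the follicle, used at passages 4 to 7. The ATRA-treated group received ATRA at 100 µM for 24 h and the control group an equal volume of culture medium, with 3 libraries in each group. The study's methods give separate animals as the source of the cells, while the labels do not tie a library to an animal.

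ATRA is a metabolite of vitamin A. It enters the nucleus and binds retinoic acid receptors (RARs), which pair with retinoid X receptors (RXRs) on DNA and switch on nearby genes when the ligand is bound. TGM2 encodes transglutaminase 2, an enzyme that joins glutamine to lysine residues of neighbouring proteins and that also binds GTP and fibronectin, and it is a textbook retinoid-induced gene. RARRES1 and RARRES2 are named as retinoic acid receptor responders because both were found in skin treated with a synthetic retinoid. RARRES1 encodes a membrane protein related to the carboxypeptidase inhibitor latexin. RARRES2 encodes chemerin, a secreted chemoattractant and adipokine that is made as an inactive precursor and is activated by proteases. The count table itself describes RARRES1 and RARRES2 as retinoic acid receptor responders and TGM2 as transglutaminase 2.

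Control libraries held 36887160 to 38012771 counted reads and ATRA libraries 35532339 to 36870939. Levels are given as normalized CPM, the reads of a gene per 1000000 reads, after scaling each library by the trimmed mean of M values (TMM). Those factors differed between the groups, averaging 0.847 for control and 1.18 for ATRA libraries. Dermal papilla and mesenchymal markers were checked first. Their summed level was 88188 to 90069 CPM in the control libraries and 4767 to 5068 in the ATRA libraries. By the rule given below, 11 of the 14 tested had fallen while 1 had risen, beside 17.3% lower and 13.7% higher over all genes tested. COL1A1, COL1A2, and VIM made up most of the control sum, with means of 27440, 28514, and 19158 CPM. In the control libraries ACTA2, the smooth muscle actin that the study stained, averaged 6582 CPM, VCAN 1641 CPM, RSPO3 275 CPM, TRPS1 22.8 CPM, and LEF1 16.1 CPM. In the ATRA libraries the same genes averaged 8.37, 32.4, 73.7, 61.0, and 11.1 CPM, and TRPS1 was the 1 that had risen. PROM1 encodes CD133, the other marker that the study stained and reported as positive. It had 1, 0, and 0 reads in the control libraries and 0 in each ATRA library, so almost no PROM1 mRNA was counted. Staining reads protein, not mRNA, and the annotation used for counting is not given, so these counts do not test the staining. ALPL and CORIN, which also mark dermal papilla cells, had at most 1 read in any library. In whole cultures such as these, fewer cells of a type and less RNA per cell cannot be told apart.

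TGM2 showed the largest fold change of the 3 members and was barely detected in untreated cells. The control libraries held 10, 3, and 4 reads of TGM2 and the ATRA libraries 185, 169, and 152. On the normalized scale these were 0.322, 0.0927, and 0.125 CPM against 4.28, 3.83, and 3.67 CPM. Every ATRA library was above every control library with a wide gap, and the 3 ATRA libraries lay close together. The mean rose from 0.180 ± 0.124 to 3.93 ± 0.315 CPM (SD, n = 3 each), a log2 fold change (log2FC) of 4.44 with a standard error of 0.308 (21.7-fold higher; adjusted p = 2.04e-10, edgeR's quasi-likelihood test with Benjamini-Hochberg adjustment over all genes tested). A gene was called when this adjusted p was under 0.05 and the log2FC was beyond 1 in either direction. By that rule 13.7% of the genes tested were higher and 17.3% lower, and without a test 41.2% had every ATRA library above every control library. Of all genes tested, 1.16% had a larger log2FC than TGM2. Because the control value rests on 17 reads in all, the scaled ratio of pooled reads was 22.1 with a 95% exact interval of 13.7 to 38.2, which covers counting error only. Without Control replicate 1, which held 10 of those 17 reads, the log2FC was 5.13.

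RARRES1 also rose, from a level at which single reads matter. It had 7, 1, and 6 reads in the control libraries and 50, 23, and 33 in the ATRA libraries. The normalized levels were 0.226, 0.0309, and 0.187 CPM against 1.16, 0.521, and 0.797 CPM. Every ATRA library was above every control library, an order that 41.2% of the genes tested shared. The ATRA libraries differed among themselves more, in proportion to their mean, than they did for TGM2. The mean went from 0.148 ± 0.103 to 0.825 ± 0.319 CPM (SD, n = 3 each), with a log2FC of 2.46 ± 0.497 (SE; 5.52-fold higher; adjusted p = 0.000193, edgeR's quasi-likelihood test with Benjamini-Hochberg adjustment). A larger log2FC was found for 3.89% of the genes tested. The pooled reads, 14 against 106, gave a scaled ratio of 5.62 with a 95% exact interval of 3.21 to 10.6 for counting error. RARRES1 was too low to be tested where at least 1 CPM in at least 3 libraries was required.

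RARRES2 moved the other way, although its name marks it as a retinoid responder. The control libraries held 64, 79, and 72 reads and the ATRA libraries 54, 41, and 34. The normalized levels were 2.06, 2.44, and 2.24 CPM against 1.25, 0.930, and 0.822 CPM. Every ATRA library lay below every control library, an order that 39.0% of the genes tested shared. The control mean was 2.25 ± 0.190 CPM and the ATRA mean 1.00 ± 0.222 CPM (SD, n = 3 each), so RARRES2 fell with a log2FC of -1.17 and a standard error of 0.233 (2.24-fold lower; adjusted p = 0.000177, edgeR's quasi-likelihood test with Benjamini-Hochberg adjustment). A lower log2FC was found for 15.0% of the genes tested, so a decrease of this size was common in the table. The scaled ratio of pooled reads was 0.445, with a 95% exact interval of 0.355 to 0.556 for counting error. The call depended on the scaling, since without TMM factors the log2FC was -0.69 (adjusted p = 0.0118 by edgeR's quasi-likelihood test) and did not reach the fold threshold. That scaling also moved the median log2FC of all genes from 0.04 to 0.52, and relative to this median RARRES2 stood at -1.20 under both scalings. A change of scaling shifts all genes by nearly the same amount, so this agreement was fixed in advance and adds nothing to the call.

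**Figure D1:**
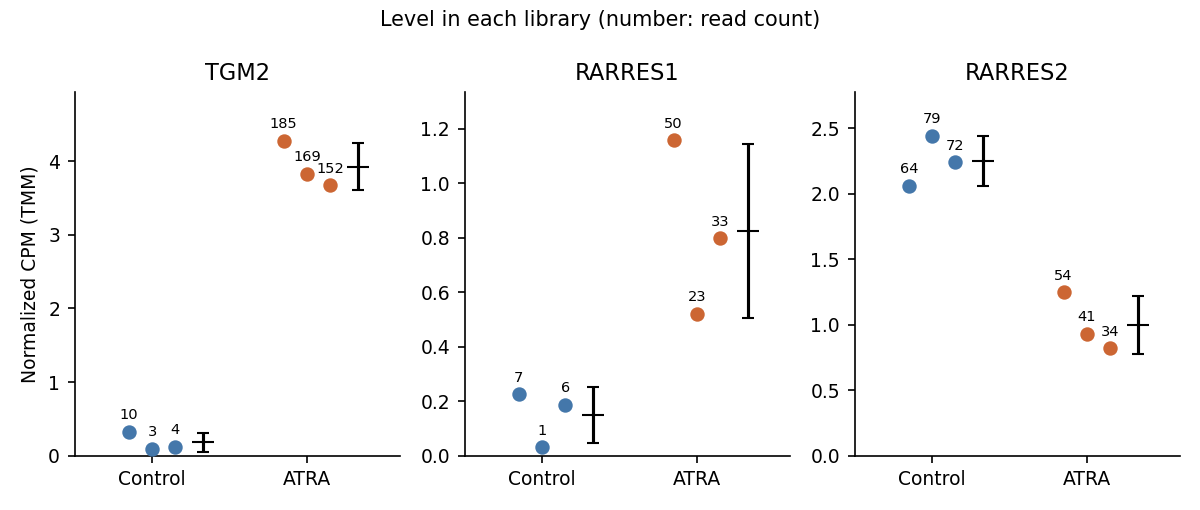
Normalized CPM (y axis, linear from 0, a separate scale for each gene) of TGM2, RARRES1, and RARRES2 in the 3 Control and 3 ATRA libraries, with the read count printed above each point and the mean ± SD in black. The ATRA libraries stand above the Control libraries for TGM2 and RARRES1 and below them for RARRES2, with no overlap between groups. Of all genes tested, 41.2% had every ATRA library above and 39.0% had every ATRA library below.

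**Figure D2:**
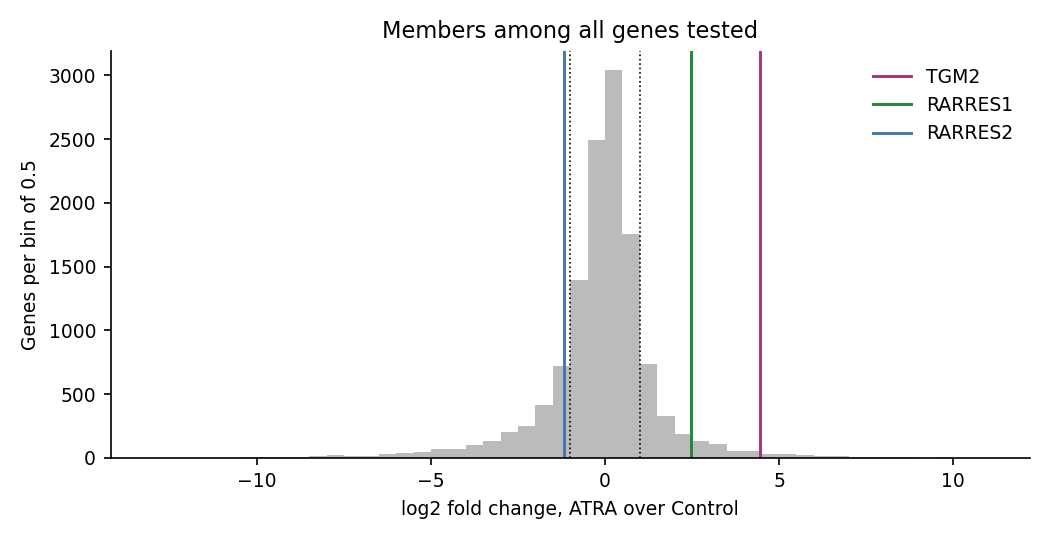
Histogram of the log2FC (x axis, ATRA over Control, bins of 0.5) of the 12588 genes tested, with the number of genes on the y axis, coloured lines at the 3 members, and dotted lines at the fold threshold of 1 in either direction. TGM2 at 4.44 and RARRES1 at 2.46 lie in the thin upper tail, whereas RARRES2 at -1.17 lies just past the threshold on the lower side.

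The 3 genes could also be set against each other inside each library, which needs no scaling between libraries. The log2 ratio of TGM2 to RARRES2 reads was -2.68, -4.72, and -4.17 in the control libraries and 1.78, 2.04, and 2.16 in the ATRA libraries. RARRES2 thus had more reads than TGM2 in every control library and fewer in every ATRA library. The means were -3.86 ± 1.06 and 1.99 ± 0.197 (SD, n = 3 each), a difference of 5.85 (p = 0.1 by a two-sided exact permutation test, which is the smallest that 3 against 3 allow; adjusted over the 3 ratios, 0.1). For RARRES1 over RARRES2 the mean log2 ratio was -4.36 ± 1.69 for control and -0.33 ± 0.438 for ATRA libraries, a difference of 4.03 with the same exact permutation p of 0.1. This difference was 3.06 without Control replicate 2, the library with a single RARRES1 read, and 4.62 without Control replicate 1. For TGM2 over RARRES1 the mean log2 ratio was 0.50 ± 1.09 against 2.32 ± 0.506, a difference of 1.82 with no overlap between groups (exact permutation p = 0.1). TGM2 therefore gained on RARRES1 in these libraries, but 3 against 3 cannot bring this test under 0.05. The ratios are of reads and not of reads per length, so only their change between groups is read here. TGM2 and RARRES1 were above and RARRES2 below the control libraries in every ATRA library. Non-overlap of the ratios over RARRES2, and with it the exact permutation p of 0.1, was therefore fixed in advance. Those ratios add no support to the calls.

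**Figure D3:**
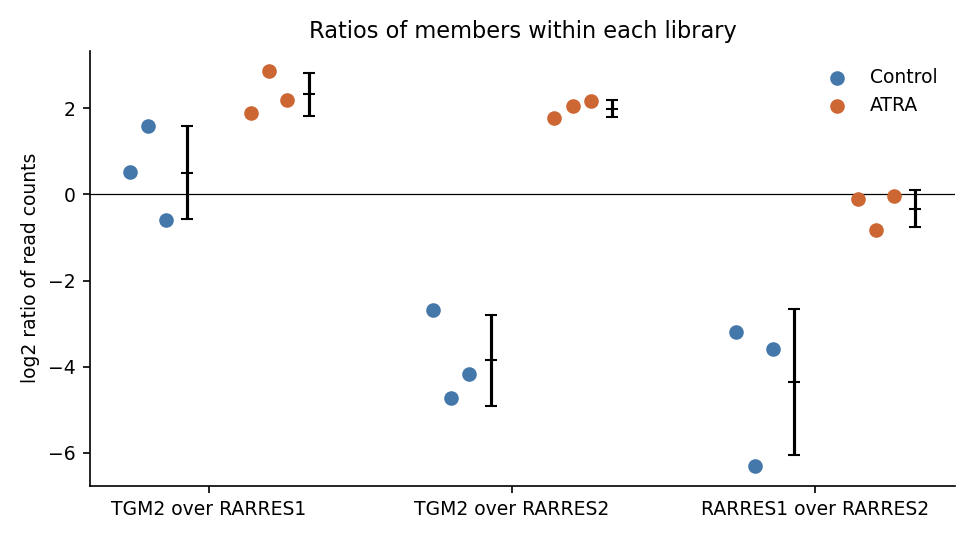
log2 ratio of read counts (y axis) for the 3 pairs of members in each Control and ATRA library, with the group mean ± SD in black and a line at 0 where both genes have the same number of reads. The groups do not overlap for any pair, which for the ratios over RARRES2 follows from the levels of the single genes. The widest step is TGM2 over RARRES2, from -3.86 to 1.99 on average.

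Within the transglutaminase family TGM2 rose and TGM1 fell, and no other family member was tested. TGM1, the enzyme that cross-links the cornified envelope of keratinocytes, had 21, 14, and 19 reads in the control libraries and 6, 5, and 7 in the ATRA libraries. It fell by 1.99 on the log2 scale (SE 0.430; adjusted p = 0.000372, edgeR's quasi-likelihood test with Benjamini-Hochberg adjustment). TGM1 reached the tested set only through the control libraries. Of 9 keratinocyte markers 8 were listed, with summed levels of 3.18 to 5.01 CPM in the control libraries and 5.37 to 5.97 in the ATRA libraries. KRT10, a keratin of differentiating keratinocytes, was the main part of the sum in every library. KRT5 and KRT14, which define basal keratinocytes, had at most 20 reads in a control library and at most 3 in an ATRA library. TGM3 and TGM7 had at most 9 reads in any library and were not tested. F13A1, the transglutaminase subunit of coagulation factor XIII, was not analysed here, nor were TGM4, TGM5, TGM6, and EPB42. Of the 6 genes that the table annotates with peptide cross-linking, TGM2 and THBS1 were tested. THBS1, which encodes the matrix protein thrombospondin, was lower by 6.19 on the log2 scale.

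Transglutaminase 2 acts outside the cell by binding fibronectin together with integrins and syndecans and by cross-linking matrix proteins. All 20 genes listed as its partners and matrix substrates were tested, of which 3 rose, 10 fell, and 7 were not called. Their median log2FC was -1.03, beside 0.04 for all genes tested, of which 13.7% were called higher and 17.3% lower. The 3 that rose were surface receptors. ITGB3, the integrin beta subunit that binds fibronectin and fibrinogen, went from 101 ± 2.01 to 308 ± 23.6 CPM (log2FC 1.61 ± 0.0623, SE). LRP5, a co-receptor of Wnt ligands, went from 3.96 ± 0.377 to 11.4 ± 1.42 CPM (log2FC 1.53 ± 0.130). SDC4, the heparan sulfate proteoglycan syndecan, went from 167 ± 3.34 to 431 ± 16.3 CPM (log2FC 1.37 ± 0.0558). These receptors changed in the same direction as TGM2, with smaller log2FCs. Other surface receptors of the list fell, among them the syndecan SDC2 (log2FC -2.01) and ITGAV, the alpha partner of ITGB3 (log2FC -1.81).

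Genes of the matrix made up most of the 10 that fell. COL1A1, a chain of the main fibrillar collagen, fell from 27440 ± 123 to 558 ± 24.9 CPM (log2FC -5.62). COL3A1, which forms a second fibrillar collagen, fell by 4.77 on the log2 scale. COL6A1, a chain of the microfibrillar collagen VI, fell by 3.01, and SPP1, the adhesive phosphoprotein osteopontin, fell by 2.38. FN1, the fibronectin that binds transglutaminase 2 directly, fell from 16702 ± 594 to 4451 ± 383 CPM (log2FC -1.91 ± 0.0697, SE). Its integrin partner ITGB1 was also lower (log2FC -1.64), whereas the alpha subunit ITGA5 did not reach the fold threshold (log2FC -0.71). The endocytic receptor LRP1, which takes up transglutaminase 2, had a log2FC of -0.52 and ADGRG1, an adhesion receptor that binds the enzyme, a log2FC of -0.36 with overlapping groups.

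Several of these matrix genes also mark mesenchymal cells, the class whose summed level dropped between the groups. TGM2 is known to be abundant in endothelial cells, so their markers were read beside it. Of 7 endothelial markers 5 were listed, and their summed level was 0.903 to 1.24 CPM in the control libraries and 6.19 to 9.16 in the ATRA libraries. That rise was carried by PECAM1, an adhesion molecule, with no read in the control libraries and a mean of 6.10 CPM in the ATRA libraries. TEK had a log2FC of 0.87 and was not called, with every ATRA library above every control library. VWF had a log2FC of 0.06 with overlapping groups. CDH5, the cadherin that defines endothelial cells, had 1 read in 1 ATRA library and none elsewhere. KDR, their VEGF receptor, had at most 10 reads in a control library and at most 2 in an ATRA library. The part of other cell types in the TGM2 result was not tested beyond these levels.

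Around RARRES1, the listed genes were relatives of the protein and enzymes that act on the tail of tubulin. Of 14 genes 7 were listed and tested, of which 3 rose, 2 fell, and 2 were not called, with a median log2FC of 0.10. Over all genes tested, 13.7% were called higher and 17.3% lower. AGBL2, a carboxypeptidase described as a partner of RARRES1, rose from 1.65 ± 0.204 to 5.79 ± 0.798 CPM (log2FC 1.81 ± 0.173, SE). The paired tubulin carboxypeptidases, which clip the terminal tyrosine from alpha-tubulin, went in opposite directions. VASH1 rose from 3.96 ± 0.912 to 14.5 ± 0.331 CPM (log2FC 1.87) and VASH2 fell from 14.5 ± 0.212 to 1.28 ± 0.212 CPM (log2FC -3.50). Their chaperone SVBP had a log2FC of -0.83 and TTL, the ligase that puts the tyrosine back, a log2FC of 0.10, neither of which was called. CST3, the protease inhibitor cystatin C, rose by a log2FC of 1.01, at the fold threshold. CST3 was not called under 6 of 15 alternatives, among them RLE size factors and DESeq2, with log2FCs from 0.96 to 1.49 over all 15.

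LXN encodes latexin, the closest relative of RARRES1, and it lies near RARRES1 on the same chromosome. LXN had 282, 274, and 260 reads in the control libraries and 61, 26, and 24 in the ATRA libraries. It fell from 8.55 ± 0.500 to 0.860 ± 0.477 CPM (log2FC -3.31 ± 0.231, SE; adjusted p = 3.54e-10, edgeR's quasi-likelihood test with Benjamini-Hochberg adjustment), so the 2 related genes moved in opposite directions. In the reference annotation LXN lies inside GFM1, a mitochondrial elongation factor gene with a log2FC of -0.40. Whether reads were counted by strand is not given in the sources used here, so reads of LXN and GFM1 may not be fully separated. MFSD1, the neighbour on the far side of RARRES1, was at 68.0 ± 3.24 CPM without ATRA and 67.4 ± 3.49 CPM with it (log2FC -0.01), with overlapping groups.

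The genes next to TGM2 and RARRES2 were read the same way, with the order of genes taken from the RefSeq assembly ARS1.2. None of the flanking genes overlaps its member in that annotation. On one side of TGM2, RPRD1B had a log2FC of 0.05 and TTI1 a log2FC of 0.49, and neither was called. The genes on its other side, KIAA1755 and BPI, were not measured, nor was LOC102175899 near RARRES1. Around RARRES2, ZNF775, REPIN1, and LRRC61 had log2FCs of -0.47, 0.72, and 0.13 and were not called. ZBED6CL was called higher, with 5, 6, and 4 reads against 29, 18, and 11 (log2FC 1.50; adjusted p = 0.0101, edgeR's quasi-likelihood test with Benjamini-Hochberg adjustment). It was tested only through the ATRA libraries. Of the neighbours measured, LXN and ZBED6CL were thus the ones called, where 31.0% of all genes tested were called in either direction. Neither lies directly beside its member, and so few calls show no pattern around the members.

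Chemerin works through CMKLR1, a G protein-coupled receptor, and is presented to it by CCRL2, which binds chemerin without signalling. Plasmin, cathepsins, and other proteases trim the precursor to its active or inactive forms. Of 16 genes listed for these roles 9 were in the table and 8 were tested, of which 7 fell and 1 was not called. Their median log2FC was -3.56, or -3.17 with CCRL2 set at its bound, beside 0.04 for all genes tested. Of all genes tested 17.3% were called lower. All 8 had every ATRA library below every control library, beside 39.0% of all genes tested. RARRES2 therefore fell together with CMKLR1, CCRL2, and 5 of the 6 tested genes of processing enzymes. Of these, CCRL2 and CPN2 reached the tested set only through the control libraries, so their fall is no independent support. The log2FC of RARRES2 was nearer 0 than those of the 7, a difference that was not tested.

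CMKLR1 had 6323, 6416, and 6712 reads in the control libraries and 191, 255, and 272 in the ATRA libraries. It fell from 204 ± 5.30 to 5.59 ± 1.09 CPM (log2FC -5.19 ± 0.0991, SE; 36.5-fold lower; adjusted p = 2.54e-18, edgeR's quasi-likelihood test with Benjamini-Hochberg adjustment). CCRL2 had 30, 13, and 17 reads in the control libraries and none in any ATRA library. Against a floor of 3 reads per library, CCRL2 was at least 9.04-fold lower (adjusted p = 3.35e-06, edgeR's quasi-likelihood test with Benjamini-Hochberg adjustment). The other chemerin receptor, named GPR1 or CMKLR2, was not analysed here. Both receptor genes were thus lower in every ATRA library than in any control library.

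The table's own annotation gives RARRES2 a role in the attraction of macrophages. Of the 9 genes with that term, all tested, CCL5 and CXCL17, a pair of chemokines, were called higher (log2FC 1.26 and 4.27), CMKLR1, RARRES2, and THBS1 were called lower, and 4 were not called. Of 32 tested genes annotated as promoting fat cell differentiation, another term of RARRES2, 4 were called higher, 7 lower, and 21 neither, beside 13.7% higher and 17.3% lower over all genes tested. The same shares stand beside the 9 genes of the macrophage term, where calls went in both directions. Its chemokines were at low levels. CXCL17 had 2, 1, and 2 reads in the control libraries and 64, 43, and 31 in the ATRA libraries, so it was tested only through the ATRA libraries. CCL5 averaged 0.618 CPM in the control and 1.48 CPM in the ATRA libraries.

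The activators of plasminogen were lower too. PLAU, the urokinase, fell from 334 ± 5.09 to 87.5 ± 4.21 CPM (log2FC -1.93), and PLAT, the tissue activator, from 69.7 ± 3.75 to 3.32 ± 0.445 CPM (log2FC -4.39). The collagen-degrading cathepsin CTSK fell from 838 ± 15.8 to 93.1 ± 5.18 CPM (log2FC -3.17). CTSS, a cathepsin of antigen-presenting cells, fell from 14.9 ± 1.70 to 1.69 ± 0.144 CPM (log2FC -3.14). CPN2, a subunit of carboxypeptidase N, which trims the end of cleaved chemerin, had 13 reads in each control library and 3, 0, and 0 in the ATRA libraries, a ratio of pooled reads of 17.5 with a counting interval of 5.57 to 88.6. CTSL did not reach the fold threshold (log2FC -0.31), and the table gives this symbol to another gene as well.

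Chemerin is an adipokine, and CMKLR1 and CTSS are known from macrophages, so adipocyte and leukocyte markers were read beside these genes. Of 6 adipocyte markers 5 were listed, with summed levels of 17.2 to 20.9 CPM in the control libraries and 3.41 to 4.03 in the ATRA libraries. CIDEC, a lipid droplet protein, made up most of the control sum and was lower by 4.74 on the log2 scale. Of the 3 adipocyte markers tested, CIDEC was thus called lower and the other 2 were called higher. ADIPOQ, the hormone that defines adipocytes, was higher by 1.04 with overlapping groups (23, 4, and 14 reads against 44, 32, and 38). PLIN1 was higher by 1.20, with every ATRA library above every control library. LEP, which was not tested, had no read in any ATRA library. Of 6 leukocyte markers 3 were listed, with summed levels of 2.69 to 5.86 CPM in the control libraries and 10.7 to 11.98 in the ATRA libraries. CD68, a lysosomal protein, carried this sum, while the macrophage receptor CSF1R and the T cell protein CD3E had at most 7 reads in any library. Their part in the fall of RARRES2 was not tested.

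**Figure D4:**
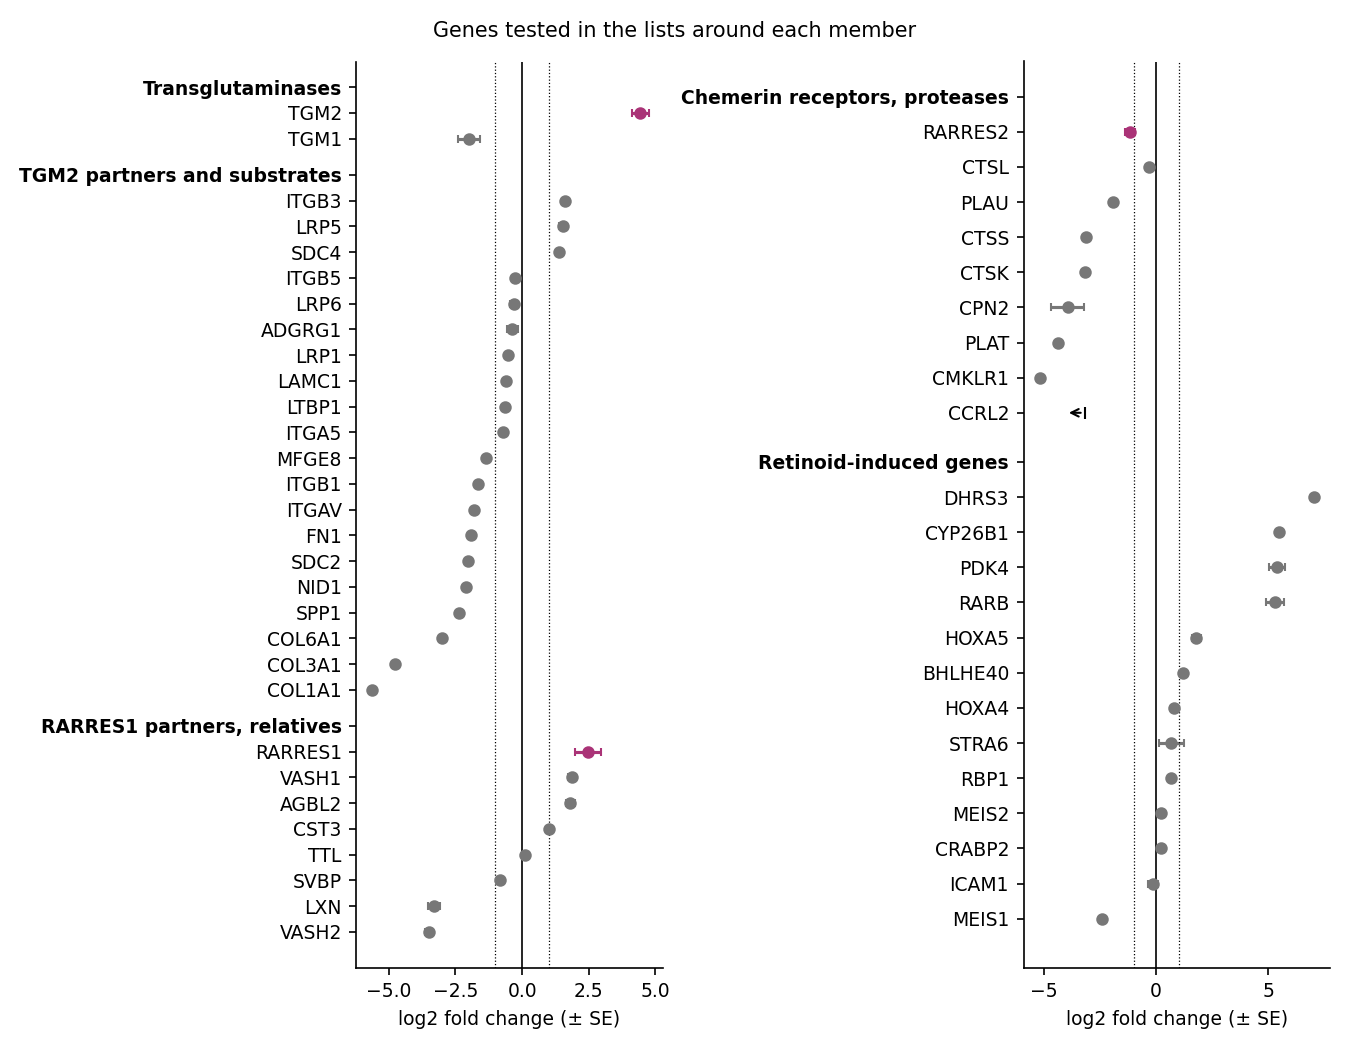
log2FC (x axis, points with SE bars) of the tested genes in the lists around TGM2, RARRES1, and RARRES2, with the 3 members in purple, dotted lines at the fold threshold, and an arrow from the bound for CCRL2, which had no reads in the ATRA libraries. The chemerin receptors and proteases all lie below 0, down to -5.19 for CMKLR1, whereas the retinoid-induced genes reach 7.02 at DHRS3.

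Among the receptors that carry the ATRA signal, RARB stood apart. Of 6 receptor genes 5 were listed and tested, and RARB was the one called, beside 31.0% of all genes tested called in either direction. RARB, a retinoid receptor that is itself induced by retinoids, had 2, 2, and 1 reads in the control libraries and 108, 91, and 82 in the ATRA libraries (log2FC 5.29 ± 0.405, SE; adjusted p = 8.38e-10, edgeR's quasi-likelihood test with Benjamini-Hochberg adjustment). Like TGM2, it had few reads in the control libraries and reached the tested set only through the ATRA libraries. Its ATRA libraries were all above its control libraries, an order that 41.2% of the genes tested shared. RARA and RXRA had log2FCs of -0.33 and -0.25, and RARG and RXRB of 0.75 and 0.76. These 4 lay inside the fold threshold, although each had an adjusted p under 0.05 by edgeR's quasi-likelihood test.

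Of 20 genes known to be induced by retinoids, RARB again among them, 14 were tested, of which 7 rose with RARB included, 1 fell, and 6 were not called. Their median log2FC was 1.01, beside 0.04 for all genes tested, of which 13.7% were called higher and 17.3% lower. DHRS3, which turns retinal back into retinol, rose from 3.47 ± 0.627 to 451 ± 23.0 CPM (log2FC 7.02). CYP26B1, which breaks down ATRA, rose from 87.5 ± 4.46 to 3842 ± 176 CPM (log2FC 5.46). PDK4, a kinase that holds back pyruvate oxidation, rose by 5.38 on the log2 scale from 8 reads in all in the control group. PDK4 and RARB, both among the 7 that rose, were tested only through the ATRA libraries. DHRS3, CYP26B1, PDK4, and RARB thus had larger log2FCs than TGM2, differences that were not tested.

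Transcription factors were also called in that list. HOXA5, which patterns the body axis, rose by 1.79 on the log2 scale, and BHLHE40, a repressor of the clock, by 1.21. MEIS1, a partner of HOX proteins, fell by 2.41. CYP26A1, which also breaks down ATRA, had 0, 0, and 0 reads in the control libraries and 0, 1, and 3 in the ATRA libraries and was not tested. STRA6, the cell-surface transporter of retinol, had a log2FC of 0.68 with overlapping groups (adjusted p = 0.262, edgeR's quasi-likelihood test). Known retinoid induction thus did not go with a higher call in every case in these libraries.

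A wider group was formed from the gene descriptions, taking every gene whose description in the table names retinoic acid. It holds 16 genes, of which 12 were tested, 2 were called higher (RARB and RARRES1), 1 was called lower (RARRES2), and 9 were not called. Among the 9 were CRABP2, which carries ATRA to the nucleus (log2FC 0.22), and the retinoic acid induced genes RAI1 and RAI14 (log2FC -0.12 and -0.23). The 3 called of 12 tested stood beside 31.0% called in either direction over all genes tested, so the share called was no higher than in the table as a whole.

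The genes whose pattern over the 6 libraries lay nearest to each member were found by the Euclidean distance of centred log2 CPM with a prior count of 2, which shrinks differences at low counts. For TGM2 these were CHD7, a chromatin remodeller, at 0.591, IGFBP1, a binding protein of insulin-like growth factors, at 0.604, and FBXO2, a ubiquitin ligase subunit, at 0.647. IGFBP1 had 1, 0, and 0 reads against 62, 62, and 52, so its control level on this scale is set mostly by the prior count. CHD7 went from 0.642 ± 0.234 to 12.2 ± 1.34 CPM. For RARRES1 they were the kinase CAMK2A at 0.296, CPNE9 at 0.389, and the adaptor DOK6 at 0.622. CAMK2A had 5, 0, and 3 reads against 35, 16, and 24, so it shared with RARRES1 a dip in both second libraries. For RARRES2 they were NME3, a nucleoside diphosphate kinase, at 0.224, C13H20orf196 at 0.241, and CPEB1, a regulator of polyadenylation, at 0.245. NME3 went from 12.1 ± 1.29 to 5.38 ± 0.770 CPM, nearly the same fold as RARRES2. These distances describe 6 libraries and were chosen as the smallest over the table.

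The size of each change depended on the scale. As a ratio of mean CPM with 1 CPM added to both groups, the log2 change was 2.06 for TGM2, 0.67 for RARRES1, and -0.70 for RARRES2. On that scale RARRES1 and RARRES2 lay inside the fold threshold, because both are near or under 1 CPM in at least one group. R's t.test function, run on log2(CPM + 1), likewise called TGM2 and not the other two.

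**Figure D5:**
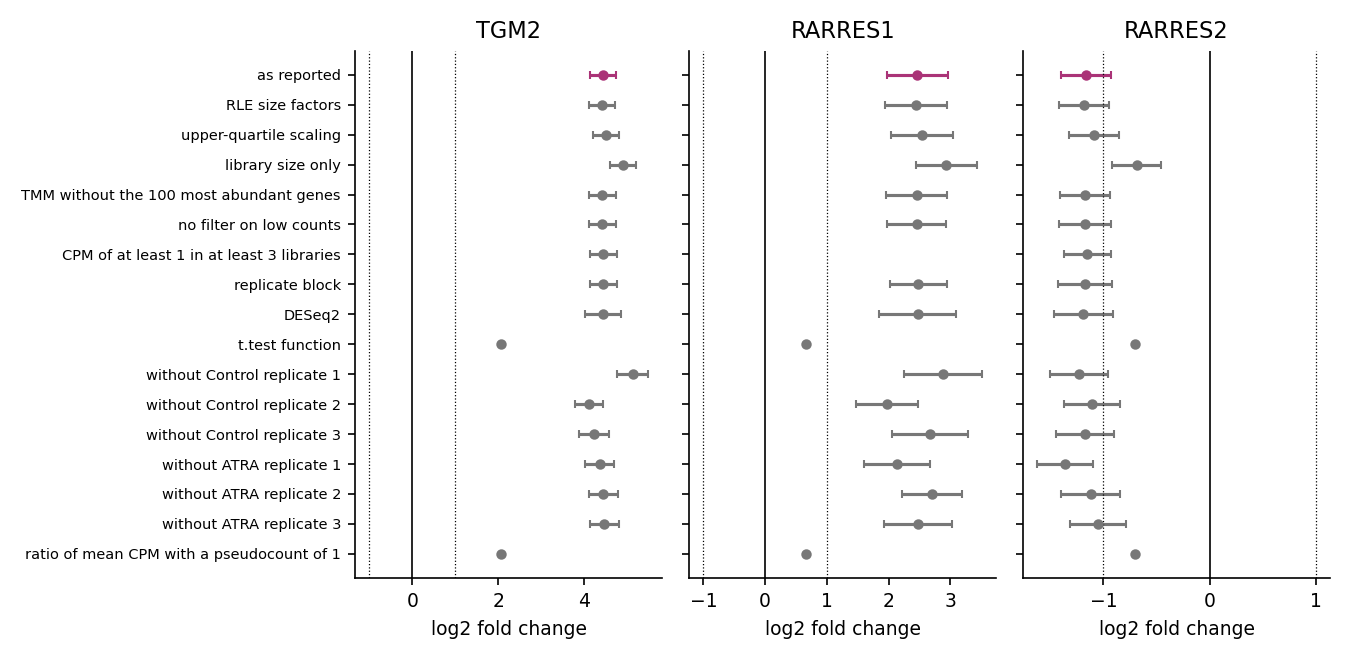
log2FC of each member (x axis, a separate scale for each gene) under every processing alternative (y axis), with SE bars where the method gives one and dotted lines at the fold threshold. TGM2 and RARRES1 stay above 0 and RARRES2 below 0 throughout, and RARRES2 stands inside the threshold at -0.69 with library size only. Under the t.test function and the pseudocount of 1, RARRES1 (0.66 and 0.67) and RARRES2 (-0.70 in each) also stand inside it.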

How the data were processed

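RNA-seq was analysed for 3 control and 3 ATRA-treated SHF-DPC cultures. The authors enriched poly(A) mRNA, used fastp and TrimGalore for cleaning, and deposited raw read counts per gene with GO and KEGG annotation. The submitters' processing notes name HISAT2, featureCounts, and DESeq2. The genome build, the annotation, and the strand setting are not given in the sources used here, and all 6 libraries carry the same batch label. All 15944 gene names matched RefSeq symbols of ARS1.2, which gave gene order only.

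From these counts, genes were filtered with edgeR's expression filter (12588 tested), given TMM factors, and tested by its robust quasi-likelihood test, two-sided, on all 6 libraries without covariates. P-values were adjusted by Benjamini-Hochberg over all genes tested. A call required an adjusted p under 0.05 and |log2FC| above 1, the fold threshold of the study's methods. With a prior count of 0.125 for the log2FC, the standard error is |log2FC| over the square root of F. No pair of replicates agreed within sampling noise (chi-square per degree of freedom 5.01 to 18.4). P-values measure the spread between these cultures.

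The genes named are the members, called genes of each list with a mean of at least 1 CPM in a group (the 4 largest per direction where over 8 were called), defining genes by role, the 3 nearest patterns per member, and flanking genes. ITGB1, ITGAV, SDC2, ITGA5, LRP1, ADGRG1, CPN2, CTSL, SVBP, TTL, TGM3, TGM7, the uncalled receptors, CRABP2, RAI1, RAI14, CCL5, CXCL17, the cell type markers, and THBS1 were added with their values in view. A result for another gene of the lists is counted but not reported by name here. The members and lists were chosen with earlier results of these data known, and the groups from gene descriptions and GO terms after the table was seen. In simulated data, 200 of 12588 genes were changed by a log2FC of 2 up or down. Of these, edgeR recovered 200 with 0 false calls, DESeq2 200, and R's t.test function 142. The changed genes were drawn from those averaging at least 1 CPM, a level that RARRES1 did not reach. Their change was larger than that of RARRES2, and their share was far below the 31.0% called in the data. The simulation therefore does not cover the calls of RARRES1 and RARRES2. Alternatives were other scalings, filters, and thresholds, DESeq2, the t.test function of R on log2(CPM + 1), a replicate block, and leaving out each library. Versions were edgeR 4.0.16, DESeq2 1.42.0, and limma 3.58.1 in R 4.3.3, with scipy 1.17.1 and matplotlib 3.10.9 in Python 3.11.15.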

Additional observations from a re-analysis of the deposited data

How the results depend on the processing

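TGM2, RARRES1, and RARRES2 kept their direction under every alternative that tested them. Adjusted p-values ranged from 4.83e-26 to 0.00107 for TGM2 over 15 alternatives, from 1.24e-06 to 0.042 for RARRES1 over 14, and from 3.27e-05 to 0.013 for RARRES2 over 15 (edgeR, DESeq2, or R's t.test function, Benjamini-Hochberg adjustment). With library size only, the RARRES2 log2FC was -0.69 and not called, 3389 genes were called higher and 1471 lower instead of 1729 and 2173, and 3 retinoid receptors were higher. On log2(CPM + 1) with R's t.test function, the log2FC was 0.66 for RARRES1 and -0.70 for RARRES2, neither called, 1090 genes were higher, and 0 transglutaminases were lower. A pseudocount of 1 by itself gave 2.06 for TGM2, 0.67 for RARRES1, and -0.70 for RARRES2, since adding 1 shrinks the change of genes near 1 CPM. CCRL2 and CPN2 also lost their calls under R's t.test function, and CST3 under RLE size factors, DESeq2, no filter, and without Control replicate 3, ATRA replicate 1, or ATRA replicate 3. Requiring at least 1 CPM in at least 3 libraries also left 0 transglutaminases lower, because TGM1 was no longer tested, and gave no value for RARRES1, CCRL2, or CPN2. With no fold threshold, 5151 genes were higher and 4877 lower, 3 retinoid receptors were higher and 2 lower, 11 other retinoid-induced genes were higher, and 16 transglutaminase 2 partners and substrates were lower. Leaving out each library in turn gave 4.12 to 5.13 for TGM2, 1.98 to 2.88 for RARRES1, and -1.36 to -1.05 for RARRES2. Same-numbered libraries did not deviate together (r = 0.0892, 0.0299, and -0.0764), and the replicate block gave 4.45 for TGM2, 2.48 for RARRES1, and -1.17 for RARRES2 and changed none of these calls. The reads of TGM2 and RARRES1 in the control group, 17 and 14 in all, limit how well their folds are known.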
